A study of Mus musculus with 6 samples.

Results

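The interferon genes of the mouse liver were followed here in 6 livers after partial hepatic ischemia and reperfusion (I/R), of which 3 had been treated with vehicle (I/R) and 3 with ginsenoside Rk2, a saponin of ginseng (I/R+Rk2). Members were taken by name from the 15454 rows of the deposited count table: the interferon receptors, STAT proteins, the interferon regulatory factors and the main families of interferon-stimulated genes. The names picked out 78 genes, of which 67 had enough counts for a test. All mice were male C57BL/6 animals of 8 to 10 weeks with no engineered allele named in the labels, and 75% of each liver had been made ischemic while warm. Rk2 or vehicle was given 2 days before surgery and again as perfusion began, at a dose that the study calls high, and sham-operated livers were not analysed here. A single comparison, of I/R+Rk2 with I/R, is possible, and it asks which interferon genes differ after Rk2 in livers that all underwent the injury.

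Interferons are cytokines that cells release on sensing nucleic acids or immune activation. Type I interferons bind the IFNAR1-IFNAR2 receptor and interferon gamma binds IFNGR1-IFNGR2. Janus kinases at these receptors phosphorylate STAT proteins, which enter the nucleus with or without IRF9 and switch on genes that carry an interferon-stimulated response element (ISRE) or a gamma-activated site (GAS). The products include antiviral proteins, GTPases that attack intracellular pathogens, DNA and RNA sensors and inhibitors of the pathway itself, and in the liver they are made by hepatocytes as well as by resident and infiltrating leukocytes.

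The ISRE was looked for in the promoters of the members, since it is the sequence that the family shares. The windows were the 250 bases before each annotated start in the RefSeq table for GRCm38.p6, and the motifs were the ISRE core, GAAA and again GAAA with any 2 bases between them, on both strands, and the GAS motif, TTC and GAA with any 3 bases between them, which is its own reverse complement. Windows were found for 62 of the 78 members. The ISRE core was present in 30 of the 62 (48.4%), against 936 of 27025 genes (3.46%) in the whole table, and the GAS motif in 13 (21%) against 8.13%. The 2 motifs can overlap in a window, and a match is a description of the letters only. The core was found in 2 of 7 matched members that were higher in I/R+Rk2 and in 7 of 17 that were lower. It was also found in 15 of 28 tested members that did not pass in either direction and in 6 of 10 that had too few counts. The stretches printed here carry the core in capitals with 25 bases on each side, read 5′ to 3′ on the strand of the gene. The first 6 are those of members that fell, and Bst2 and Oas1c, which rose, were chosen after their values were seen.
Oas3 (chr5:120777700-120777759, minus strand): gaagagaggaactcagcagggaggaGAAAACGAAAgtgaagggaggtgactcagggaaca
Gbp2 (chr3:142620579-142620638, plus strand): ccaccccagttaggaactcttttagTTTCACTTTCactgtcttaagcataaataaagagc
Gbp5 (chr3:142496744-142496803, plus strand): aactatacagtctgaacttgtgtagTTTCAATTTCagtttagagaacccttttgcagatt
Ifi211 (chr1:173913049-173913108, minus strand): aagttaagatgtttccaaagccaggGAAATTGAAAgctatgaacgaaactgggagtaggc
Ifi205 (chr1:174031855-174031914, minus strand): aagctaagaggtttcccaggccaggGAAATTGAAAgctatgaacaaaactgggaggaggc
Ifi207 (chr1:173741816-173741875, minus strand): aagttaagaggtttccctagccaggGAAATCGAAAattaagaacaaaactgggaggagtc
Bst2 (chr8:71537562-71537627, minus strand): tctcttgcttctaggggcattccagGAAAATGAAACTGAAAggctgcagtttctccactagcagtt
Oas1c (chr5:120812588-120812653, minus strand): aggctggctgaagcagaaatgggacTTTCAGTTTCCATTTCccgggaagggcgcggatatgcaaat
The 3 IFI200 stretches are near copies of each other. Ifi211 and Ifi205 were identical at 54 of 60 positions (90%), Ifi207 and Ifi205 at 52 (86.7%) and Ifi211 and Ifi207 at 50 (83.3%), while Gbp2 and Gbp5, the next most alike, shared 28 (46.7%). Bst2 and Oas1c each hold 2 overlapping cores. An ISRE core was therefore present before the RefSeq start of genes that rose and of genes that fell. In GENCODE M21, which gave the gene positions below, the Gbp2 and Gbp5 cores lie inside the gene.

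The members did not move as one block. Of the 67 tested, 32 passed an edgeR adjusted p below 0.05, 12 higher and 20 lower in I/R+Rk2. These are 47.8% of the tested members, against 43.9% of all 12411 genes tested. The higher members were 17.9% against 20.3% of all genes, and the lower members 29.9% against 23.7%. With a fold change above 2 as well, 4 were higher (5.97% against 3.17%) and 15 lower (22.4% against 11.4%), 19 in all (28.4% against 14.6%). The livers of the 2 groups did not overlap in scaled level for 19 members that were higher and 20 that were lower, against 57.4% of all genes in either direction, 27.1% of all genes higher and 30.3% lower. The median log2 ratio (I/R+Rk2 over I/R) of the members was 0.04, beside -0.01 over all genes. The 4 higher genes past 2-fold were Ifit2, Oas1c, Gbp6 and Dhx58. Ifit2 and Oas1c passed the count filter only through the I/R+Rk2 livers, as Ifi209 among the lower genes did through the I/R livers. With at least 10 counts in every liver, 1 was higher and 12 lower past 2-fold. Without I/R liver 1 the number higher past 2-fold was 0, without I/R+Rk2 liver 2 or 3 it was 2 each, and without I/R+Rk2 liver 1 it was 6. Without the fold limit, the 12 rises became 7 without I/R liver 1, 6 without I/R+Rk2 liver 2 and 7 without I/R+Rk2 liver 3. With 1 liver removed at a time, 17 to 20 of the members fell. Of the 20 falls, 16 kept their call in every alternative in which they could be fitted, and of the 12 rises only Bst2 did.

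**Figure D1:**
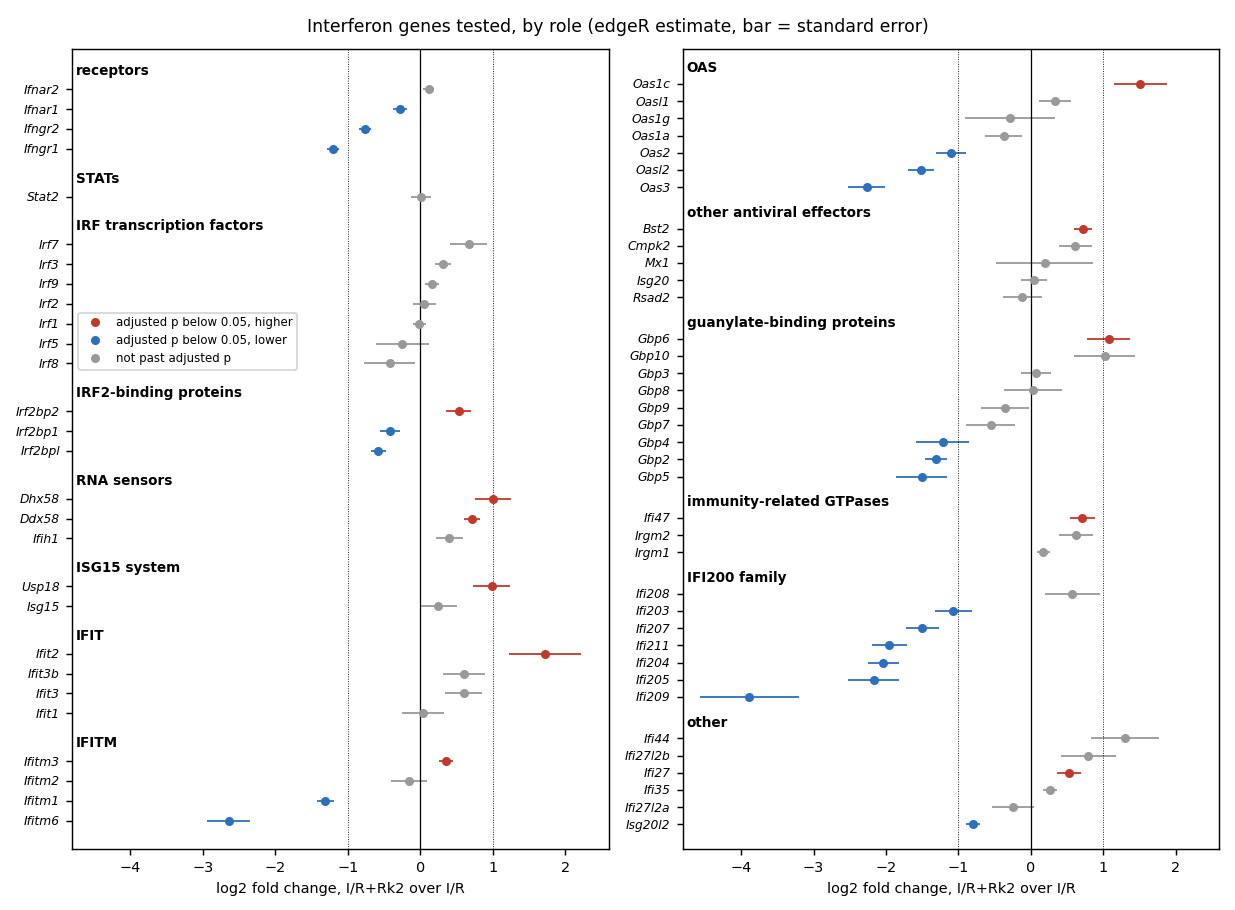
Log2 ratio (horizontal axis, I/R+Rk2 over I/R) of 65 of the 67 tested interferon genes, grouped by role, with the SE as a bar and dotted lines at 2-fold. Points left of 0 were lower in I/R+Rk2; 6 of the 7 IFI200 genes lie left of the dotted line at 2-fold, while the RNA sensors, IFIT genes and immunity-related GTPases lie right of 0.

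All 11 untested members had between 0 and 18 counts in each liver. They were Ifit1bl1, Ifit1bl2, Ifi206, Ifi213, Ifi214, Ifitm5, Ifitm7, Ifitm10, Irf4, Gbp2b and Oas1e. Of the tested members, 60 lay above the limit of 0.407 counts per 1000000 of the unscaled library in all 6 livers. Levels below are in CPM (counts per 1000000 of the scaled library). Ifi209 and Gbp8 were above the limit in all 3 I/R livers but not in all 3 I/R+Rk2 livers. For Ifit2, Oas1c and Oas1g it was the reverse. The direction of those genes is therefore not independent of the filter. A further 5 genes whose names fit the rule, Oas1d, Oas1f, Oas1h, Ifi44l and Ifi202b, were listed at 0 in all 6 livers of the FPKM table and had no row of counts.

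Total counts ran from 16809613 to 35618074 per liver, at which 3 counts stand for 0.0888 to 0.184 CPM. These floors cover counting error only. The livers also differed in some of their cell type markers. Marker counts are at the adjusted p alone, at which 20.3% of all genes were higher and 23.7% lower. The summed level of 14 monocyte markers (Fn1 left out) was 523 to 622 CPM in I/R and 113 to 135 CPM in I/R+Rk2, and all 15 markers, Fn1 included, fell. With Fn1, which held most of its counts, the list summed to 1945 to 2298 against 1235 to 1294 CPM. Of 16 tested neutrophil markers 14 fell, and their list summed to 677 to 820 against 129 to 286 CPM. Kupffer cell markers summed to 149 to 206 against 128 to 161 CPM, with 2 of 12 lower (5 without I/R liver 2 and 4 without I/R+Rk2 liver 1), and endothelial markers to 248 to 263 against 217 to 270 CPM, with 3 of 12 higher and 3 lower. Dendritic cell markers summed to 6.44 to 8.49 against 3.25 to 4.35 CPM and plasmacytoid dendritic cell markers to 3.40 to 5.53 against 2.90 to 6.26 CPM, with Klk1 at 0 counts in the I/R+Rk2 livers, while the B cell list had 0 and the NK and T cell list 2 genes with enough counts for a test. Hepatocyte markers summed to 70096 to 81207 CPM in I/R and 104914 to 129607 CPM in I/R+Rk2, with 6 of 10 higher and 1 lower (2 higher without I/R liver 1, I/R+Rk2 liver 2 or I/R+Rk2 liver 3, and 3 without I/R liver 3). In whole liver, fewer cells of a type and less RNA per cell cannot be told apart, and the part of these cell types in the results was not tested.

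**Figure D2:**
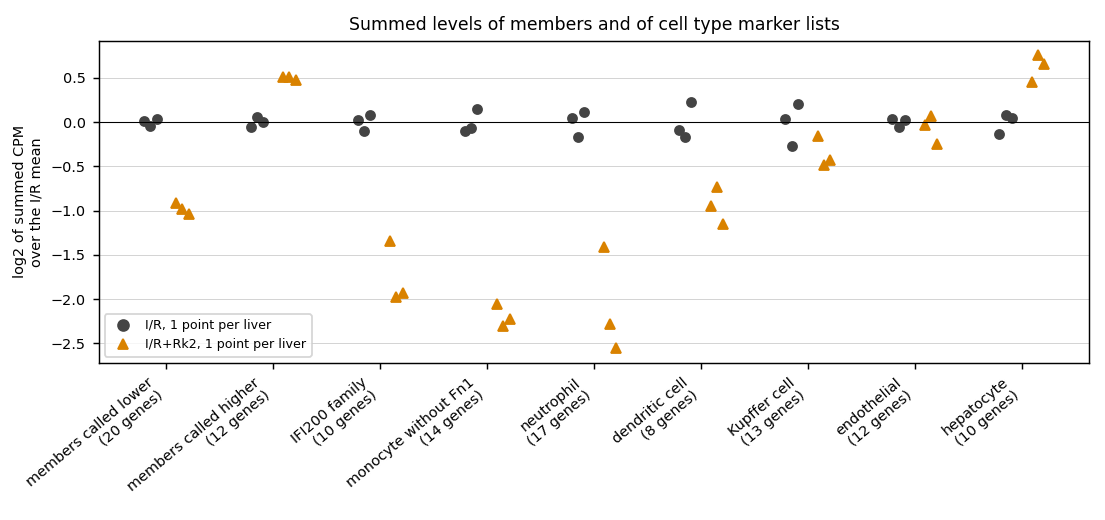
Summed CPM of gene lists in each liver, as log2 over the mean of the 3 I/R livers (1 point per liver). In the I/R+Rk2 livers the members that fell, the IFI200 family and the monocyte, neutrophil and dendritic cell lists lie below all I/R livers, and the members that rose and the hepatocyte list lie above them. The members that fell and those that rose were picked by their calls in these same livers, so their positions follow from that choice.

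Both chains of the receptor for interferon gamma fell. Per-liver values are given in the order of livers 1, 2 and 3, the replicate numbers of the labels. The log2 ratio is that of I/R+Rk2 over I/R in the edgeR fit, and SE its standard error. Ifngr1, the ligand-binding chain (chromosome 10, 19591949 to 19610229, plus strand, mm10), had 653, 874 and 891 counts in I/R and 378, 496 and 234 in I/R+Rk2. Scaled to library size this was 34.6 ± 0.834 CPM against 14.98 ± 0.801 CPM (SD, n = 3), a log2 ratio of -1.21 with an SE of 0.089 (edgeR adjusted p = 0.000266). Every I/R+Rk2 liver lay below every I/R liver. Ifngr2, the signalling chain (chromosome 16, 91547072 to 91565623, plus strand), had 634, 790 and 817 counts against 447, 663 and 301, or 32.2 ± 1.17 against 18.97 ± 0.593 CPM. Its log2 ratio was -0.76 with an SE of 0.085 (edgeR adjusted p = 0.000927), again without overlap.

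The receptor for type I interferon differed little. Ifnar1, which lies beside Ifngr2 and recruits the kinase TYK2, had 637, 732 and 737 counts against 572, 824 and 431. Its log2 ratio was -0.28 with an SE of 0.097 (edgeR adjusted p = 0.0494). This call was on the limit and was lost without each of the 6 livers in turn, with log2 ratios of -0.206 (without I/R liver 1) to -0.325 (without I/R liver 2) and adjusted p-values of 0.0627 to 0.177. Ifnar2, the other chain of that receptor, had 887, 1194 and 1192 counts against 1205, 1677 and 839, a log2 ratio of 0.11 with an SE of 0.073 (edgeR adjusted p = 0.245). Its scaled levels of 46.8 ± 0.658 and 50.6 ± 0.937 CPM did not overlap, but the difference did not pass. On the per-length scale of the FPKM table, Ifnar2 was the most abundant receptor chain in I/R at 26.0 ± 2.32 FPKM, and Ifngr1, at 17.6 ± 0.761 FPKM in I/R, stood at 6.97 ± 0.493 FPKM in I/R+Rk2.

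Of the STAT proteins that carry the signal from the receptors to DNA, Stat2 had 384, 535 and 447 counts against 545, 587 and 305. Its groups overlapped, with a log2 ratio of 0.01 and an SE of 0.13 (edgeR adjusted p = 0.971), and it did not pass. Only transcripts were measured, not phosphorylation of the protein.

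**Figure D3:**
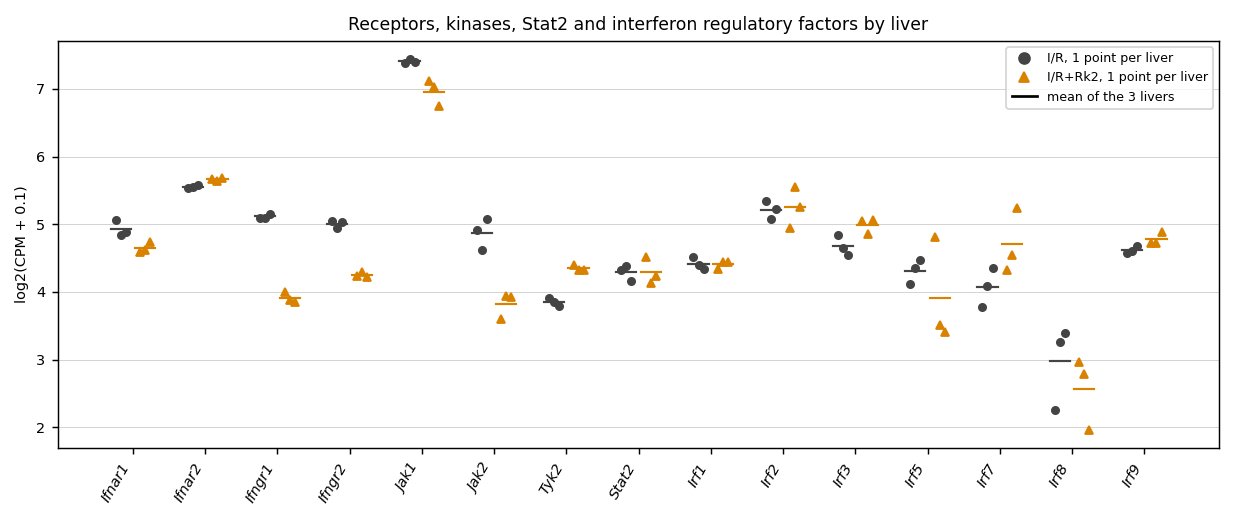
Scaled level, log2(CPM + 0.1), of receptors, Janus kinases, Stat2 and interferon regulatory factors in each liver (1 point per liver, line at the group mean). Ifngr1, Ifngr2, Jak1 and Jak2 are lower and Tyk2 is higher in every I/R+Rk2 liver, whereas Stat2, Irf1 and Irf2 overlap.

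The interferon regulatory factors are the transcription factors that drive interferon and interferon-stimulated genes, and those named here did not pass. Irf1, the factor most directly induced by interferon gamma, had 436, 539 and 506 counts against 477, 729 and 354, or 21.3 ± 1.30 against 21.1 ± 0.934 CPM (log2 ratio -0.01, SE 0.096, edgeR adjusted p = 0.926). Irf2, which opposes it, had 775, 863 and 934 against 732, 1583 and 618 counts (log2 ratio 0.06, SE 0.16, edgeR adjusted p = 0.794). Irf9, the DNA-binding partner of STAT2, had 455, 623 and 640 against 628, 889 and 481 counts (log2 ratio 0.16, SE 0.091, edgeR adjusted p = 0.193).

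Irf3, Irf5, Irf7 and Irf8, among them factors downstream of nucleic acid sensing, did not pass either, but 3 of these 4 passed with 1 liver left out. Irf3 had 548, 640 and 582 counts against 785, 977 and 545, without overlap once scaled (log2 ratio 0.31, SE 0.11, edgeR adjusted p = 0.0566), and it passed without I/R liver 1 (0.41, 0.0455). It also passed with relative log expression scaling (0.33, 0.0452) and upper-quartile scaling (0.37, 0.0331). Irf7, the amplifier of type I interferon, had 262, 434 and 509 counts against 475, 786 and 617 (log2 ratio 0.66, SE 0.26, edgeR adjusted p = 0.0731), and it passed without I/R+Rk2 liver 1 (0.83, 0.0372). In DESeq2 it passed with all livers (0.68, DESeq2 adjusted p = 0.0351). Irf5, a factor of macrophages, differed widely among the livers of 1 group, with 331, 519 and 554 counts against 669, 383 and 172. I/R+Rk2 liver 1 held the highest level of all 6 livers and the other I/R+Rk2 livers the lowest. The log2 ratio was -0.25 with an SE of 0.37 (edgeR adjusted p = 0.605) and became -0.87 (0.00533) without that liver. Irf8, a factor of monocyte and dendritic cell development, had 90, 244 and 262 counts against 183, 229 and 62 (log2 ratio -0.42, SE 0.35, edgeR adjusted p = 0.357).

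All 3 IRF2-binding proteins, known as corepressors, passed, in both directions, at a limit that 43.9% of all genes passed. Irf2bpl fell, with 654, 796 and 851 counts against 518, 826 and 326, or 33.03 ± 1.70 against 22.1 ± 2.23 CPM (log2 ratio -0.58, SE 0.10, edgeR adjusted p = 0.00486). Irf2bp1 (log2 ratio -0.41, edgeR adjusted p = 0.0469) and Irf2bp2 (0.53, 0.0400) lay close to the limit. Irf2bp1 lost its call without each of 5 livers in turn (0.078 to 0.143) and kept it without I/R+Rk2 liver 1. Irf2bp2 also lost it without each of 5 livers (0.0819 to 0.118) and kept it without I/R+Rk2 liver 1.

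The IFI200 family was lower in I/R+Rk2. These genes lie side by side on chromosome 1 (173468485 to 174031810, mm10) and encode PYHIN proteins, several of which bind DNA in the cytosol or nucleus. Of the 10 members 7 were tested, 6 fell by more than 2-fold, against 11.4% of all genes, and none rose. Without Ifi209, which passed the filter only through the I/R livers, 5 of 6 fell. The family summed to 42.3, 38.9 and 44.2 CPM in I/R and to 16.5, 10.6 and 10.9 CPM in I/R+Rk2, so that every I/R+Rk2 liver stood below every I/R liver. The monocyte and neutrophil markers described above fell in the same livers.

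Within the family, Ifi209 fell most. It had 55, 38 and 56 counts in I/R and 0, 9 and 2 in I/R+Rk2, a log2 ratio of -3.88 with an SE of 0.68 (edgeR adjusted p = 0.00427). Its I/R+Rk2 counts are at or near the floor of 3 counts in 2 of the 3 livers, so the size of the fold is poorly set. Leaving out 1 liver gave -5.27 to -3.34. Ifi204, a DNA-binding member that is abundant in myeloid cells, had 226, 334 and 373 counts against 98, 82 and 52 (log2 ratio -2.04, SE 0.21, edgeR adjusted p = 0.00075). Ifi205 had 82, 86 and 103 counts against 30, 16 and 15 (log2 ratio -2.17, SE 0.35, edgeR adjusted p = 0.00335). Ifi211 had 122, 138 and 180 counts against 50, 51 and 20 (log2 ratio -1.95, SE 0.24, edgeR adjusted p = 0.00123).

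The remaining members of the family fell less or did not pass. Ifi207 had 227, 276 and 279 counts against 131, 113 and 49 (log2 ratio -1.50, SE 0.23, edgeR adjusted p = 0.00272). Ifi203 had 81, 93 and 91 counts against 58, 55 and 22 (log2 ratio -1.07, SE 0.26, edgeR adjusted p = 0.0137), and without I/R+Rk2 liver 2 it did not pass (-0.98, 0.0523). Ifi203 shares exon positions with Mndal on the same strand, and the summed counts of both gave -1.19 (edgeR adjusted p = 0.00543). Ifi208, at 6 to 15 counts per liver, did not pass (log2 ratio 0.57, edgeR adjusted p = 0.254). Since the coding sequences of this family are close relatives, reads may have been split between them, and levels of single members are less certain than their sum.

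The IFITM genes, small membrane proteins that block virus entry, moved apart. The 4 that were tested lie in 1 cluster on chromosome 7. Of these 2 fell and 1 rose, or 50% and 25%, against 23.7% and 20.3% of all genes. Ifitm6 (141015699 to 141017924, minus strand), which is expressed mainly in myeloid cells, had 188, 319 and 284 counts in I/R and 63, 54 and 17 in I/R+Rk2. It fell from 11.2 ± 1.33 to 1.76 ± 0.815 CPM, a log2 ratio of -2.64 with an SE of 0.30 (edgeR adjusted p = 0.000954). Ifitm1 (140967221 to 140969825, plus strand) had 457, 626 and 653 counts against 269, 305 and 156 and fell from 24.8 ± 1.14 to 9.97 ± 1.19 CPM (log2 ratio -1.31, SE 0.12, edgeR adjusted p = 0.00051). Neither overlapped between the groups.

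Ifitm3, the most abundant member of all on the per-length scale, at 498 ± 35.7 FPKM in I/R, went the other way. It lies between Ifitm1 and Ifitm6 (141009586 to 141010770, minus strand) and had 6504, 8996 and 8280 counts against 11419, 14618 and 6400, or 340 ± 10.5 against 435 ± 43.5 CPM. The log2 ratio of 0.36 (SE 0.10, edgeR adjusted p = 0.0237) did not pass without I/R liver 1 (0.0508), I/R liver 3 (0.0905), I/R+Rk2 liver 1 (0.056) or I/R+Rk2 liver 2 (0.066), nor with library size alone (0.197, 0.24). Ifitm2 had 3391, 4284 and 2265 counts against 3539, 4236 and 1876 and did not pass (log2 ratio -0.16, edgeR adjusted p = 0.631). It shares exon positions on the same strand with Gm45717, to which 1851 counts were given in I/R liver 3 and 1 to 13 in the other livers. The sum of both gave -0.38 (edgeR adjusted p = 0.0264), so the result for Ifitm2 depends on how reads were given to these 2 genes in 1 liver.

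The oligoadenylate synthetases (OAS), which activate RNase L on meeting double-stranded RNA, also split. Of 7 tested, 3 fell and 1 rose, or 42.9% and 14.3%, against 23.7% and 20.3% of all genes. The rise was that of Oas1c, which, like Oas1g, passed the filter only through the I/R+Rk2 livers. Without these genes the only calls in the family were falls. Oas3 (chromosome 5, 120753098 to 120777661, minus strand), whose ISRE is printed above, had 81, 99 and 127 counts against 28, 27 and 12. It fell from 4.38 ± 0.616 to 0.904 ± 0.238 CPM (log2 ratio -2.26, SE 0.25, edgeR adjusted p = 0.000947). Oas2, its neighbour, had 53, 65 and 71 counts against 27, 42 and 23 (log2 ratio -1.10, SE 0.21, edgeR adjusted p = 0.00582). Oasl2, an OAS-like protein (chromosome 5, 114896936 to 114912234, plus strand), had 182, 189 and 239 counts against 64, 100 and 59 (log2 ratio -1.52, SE 0.18, edgeR adjusted p = 0.00113). All 3 were lower in every I/R+Rk2 liver.

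Oas1c, in the same chromosome 5 cluster as Oas2 and Oas3, rose, but from few counts, 6, 12 and 6 against 19, 39 and 16. The log2 ratio was 1.51 with an SE of 0.37 (edgeR adjusted p = 0.0151), and it did not pass without I/R liver 1 (1.47, 0.0541), I/R liver 3 (1.30, 0.0612) or I/R+Rk2 liver 2 (1.36, 0.0645). Oas1a (log2 ratio -0.38), Oas1g (-0.29) and Oasl1 (0.33) did not pass. The Oas1 genes are close copies, so their counts are uncertain in the same way as those of the IFI200 family.

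The guanylate-binding proteins (GBP), GTPases that coat intracellular pathogens and vacuoles and are classic targets of interferon gamma, gave 3 falls and 1 rise among 9 tested, or 33.3% and 11.1%, against 23.7% and 20.3% of all genes at the adjusted p. Gbp2 (chromosome 3, 142620602 to 142638008, plus strand) had 190, 257 and 299 counts against 87, 149 and 78, or 10.6 ± 1.13 against 4.29 ± 0.577 CPM (log2 ratio -1.31, SE 0.15, edgeR adjusted p = 0.0011). Gbp5, on the same cluster, had 27, 59 and 59 counts against 13, 33 and 9 (log2 ratio -1.51, SE 0.35, edgeR adjusted p = 0.0131). Their neighbours Gbp3 (0.07) and Gbp7 (-0.56) did not pass.

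The other GBP cluster, on chromosome 5, held 1 fall and 1 rise, both less certain. Gbp4 had 32, 63 and 56 counts against 20, 44 and 8 (log2 ratio -1.22, SE 0.37, edgeR adjusted p = 0.0322). It did not pass without I/R liver 2 (-1.10, 0.0923), I/R liver 3 (-1.19, 0.0854), I/R+Rk2 liver 1 (-1.17, 0.0717) or I/R+Rk2 liver 3 (-0.97, 0.0614), nor when summed with Gbp8 and Gbp9, which share its exon positions (-0.61, 0.0808). Gbp6 (105270702 to 105293698, minus strand) had 34, 81 and 95 counts against 146, 164 and 124 (log2 ratio 1.07, SE 0.30, edgeR adjusted p = 0.025). It did not pass without I/R liver 1 (0.84, 0.0505), I/R liver 2 (1.13, 0.056), I/R+Rk2 liver 1 (1.06, 0.0513) or I/R+Rk2 liver 3 (0.91, 0.0698), and summed with the overlapping Gm43302 it gave 0.47 (0.239). Gbp8, Gbp9 and Gbp10 did not pass.

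**Figure D4:**
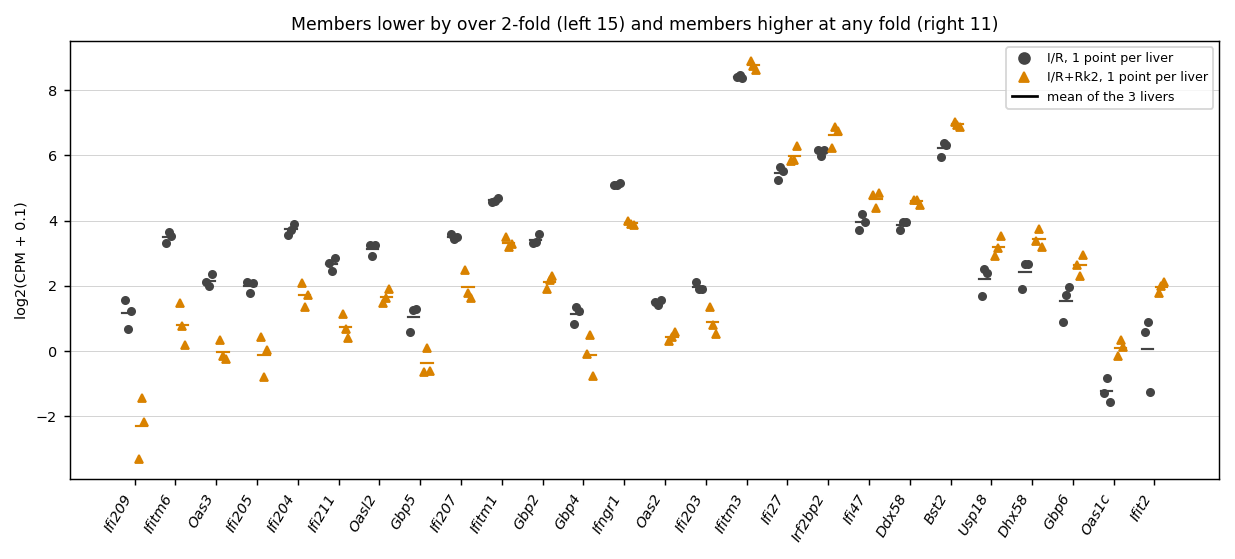
Scaled level, log2(CPM + 0.1), in each liver of the 15 members that fell by more than 2-fold (left) and 11 of the 12 that rose at any fold (right), with a line at each group mean. The I/R and I/R+Rk2 livers do not overlap for any gene shown, and Ifi209 lies near the bottom of the scale in I/R+Rk2.

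The members that rose included sensors of viral RNA. Ddx58, which encodes RIG-I (chromosome 4, 40203773 to 40239828, minus strand), had 249, 394 and 390 counts against 593, 837 and 363, or 14.6 ± 1.43 against 24.0 ± 1.48 CPM. The log2 ratio was 0.71 with an SE of 0.11 (edgeR adjusted p = 0.00302), and it was 0.323 and did not pass on log2(FPKM + 1) (limma adjusted p = 0.0756). Dhx58, which encodes the regulator LGP2 (chromosome 11, 100694884 to 100704271, minus strand), had 70, 162 and 157 counts against 243, 451 and 146. Its log2 ratio of 1.001, with an SE of 0.25 (edgeR adjusted p = 0.0158), lies on the 2-fold limit, and it did not pass without I/R+Rk2 liver 2 (0.82, 0.0577). Ifih1, which encodes the third sensor of the family, MDA5, had overlapping groups and did not pass (log2 ratio 0.40, edgeR adjusted p = 0.121), except without I/R liver 3 (0.58, 0.0483) and with the length trend removed (0.54, 0.0494).

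Bst2, which encodes tetherin, a protein that holds budding virus on the cell surface, was the only rise that kept its call in every alternative (chromosome 8, 71534255 to 71537456, minus strand). It had 1181, 2155 and 1997 counts in I/R and 3098, 4164 and 1917 in I/R+Rk2, or 75.1 ± 11.9 against 123.7 ± 6.26 CPM. The log2 ratio was 0.72 with an SE of 0.13 (edgeR adjusted p = 0.00446), and every I/R+Rk2 liver lay above every I/R liver. The other antiviral effectors tested did not pass: Rsad2, which encodes viperin (log2 ratio -0.12), Isg20 (0.04), Mx1 (0.19) and Cmpk2 (0.61, edgeR adjusted p = 0.062). Cmpk2 passed without I/R+Rk2 liver 1 (0.80, 0.0101), with upper-quartile scaling (0.66, 0.0468) and with the length trend removed (0.66, 0.0493).

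Among the IFIT genes, which bind viral RNA, Ifit2 rose, with 27, 45 and 8 counts in I/R against 79, 132 and 69 in I/R+Rk2. The log2 ratio was 1.72 with an SE of 0.50 (edgeR adjusted p = 0.0286). It did not pass without I/R liver 1 (1.88, 0.0644), I/R+Rk2 liver 2 (1.70, 0.0727) or I/R+Rk2 liver 3 (1.65, 0.0669). Leaving out 1 liver at a time gave log2 ratios of 1.26 to 2.19. Per length, Ifit2 stood at 0.393, 0.441 and 0.405 FPKM in I/R and 0.794, 0.902 and 0.944 FPKM in I/R+Rk2, so the low count of I/R liver 3 was not seen there. The size of the ratio is therefore poorly set, and Ifit2 passed the count filter only through the I/R+Rk2 livers. Ifit1 had 63, 75 and 134 counts against 74, 132 and 80 and did not pass (log2 ratio 0.04, edgeR adjusted p = 0.93). Ifit3 (0.60, edgeR adjusted p = 0.0909) and Ifit3b (0.60, 0.129), which are near copies, passed only without I/R liver 3 (0.87, 0.0293 and 0.93, 0.0384).

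In the ISG15 system, in which a ubiquitin-like protein is attached to others, Usp18, the enzyme that removes ISG15 and restrains the type I receptor, rose. It had 60, 143 and 130 counts against 177, 301 and 186, a log2 ratio of 0.98 with an SE of 0.25 (edgeR adjusted p = 0.0184), and did not pass without I/R+Rk2 liver 3 (0.82, 0.0518). Isg15 itself had 112, 177 and 280 counts against 197, 299 and 187 and did not pass (log2 ratio 0.25, edgeR adjusted p = 0.465). Of the immunity-related GTPases, which act on vacuoles of intracellular microbes, Ifi47 rose, with 247, 470 and 386 counts against 648, 706 and 463 (log2 ratio 0.71, SE 0.17, edgeR adjusted p = 0.0145), and did not pass without I/R liver 3 (0.70, 0.0529). Irgm2 had a log2 ratio of 0.62 (edgeR adjusted p = 0.0713) and passed without I/R+Rk2 liver 1 (0.80, 0.0237). The sum of Irgm2 and Igtp, which share exon positions, also passed (0.62, 0.0347). Igtp gave 43.5% of the summed counts and passed by itself (0.63, 0.0152), so the sum says little about Irgm2 alone. Irgm2 also passed in DESeq2 (0.64, DESeq2 adjusted p = 0.037) and with the length trend removed (0.81, edgeR adjusted p = 0.034). Irgm1, with 1061, 1532 and 1339 counts against 1490, 2031 and 1091, did not pass (0.17, 0.147).

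Of the remaining members, Isg20l2, a nucleolar exonuclease of ribosomal RNA processing that carries the interferon name by sequence likeness, fell. It had 445, 648 and 591 counts against 328, 489 and 213, or 24.02 ± 1.12 against 13.8 ± 0.699 CPM (log2 ratio -0.80, SE 0.097, edgeR adjusted p = 0.0012). Ifi27 rose (log2 ratio 0.53, SE 0.16, edgeR adjusted p = 0.0329) but did not pass without I/R liver 1 (0.43, 0.108), I/R liver 3 (0.55, 0.0788), I/R+Rk2 liver 2 (0.59, 0.0512) or I/R+Rk2 liver 3 (0.37, 0.0745). Ifi35, Ifi44, Ifi27l2a and Ifi27l2b did not pass. Ifi44 passed without I/R+Rk2 liver 1 (1.67, 0.00424), as did Ifi27l2b (1.08, 0.0289). Ifi44 also passed in DESeq2 (1.31, DESeq2 adjusted p = 0.0448), and Ifi35 with upper-quartile scaling (0.31, edgeR adjusted p = 0.0432).

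The levels of the members differed widely. Per length, 17 of the 78 lay above 10 FPKM and 25 below 1 FPKM on average in I/R. After Ifitm3 came Ifitm2 (222 ± 81.2 FPKM in I/R and 176 ± 28.8 in I/R+Rk2), Bst2 (98.3 ± 10.7 and 144 ± 12.8) and Ifi27 (55.2 ± 4.47 and 72.5 ± 13.3). The summed CPM of the 12 members that rose went from 584 to 633 in I/R to 845 to 866 in I/R+Rk2, and that of the 20 that fell from 268 to 283 to 135 to 147. These sums follow from how their genes were chosen and are given as levels only.

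The other parts of the pathway were read from lists of 95 genes that are no members, of which 79 were tested. Of these 16 were higher and 28 lower at an edgeR adjusted p below 0.05, and 14, all of them lower, also lay past 2-fold. The higher genes were 20.3% of those tested, the same share as over all genes, the lower ones 35.4% against 23.7%, and those lower past 2-fold 17.7% against 11.4%. Those lower past 2-fold include Ticam2 and Tlr9, which passed the count filter only through the I/R livers, so these shares are not independent of the filter. Without I/R liver 1, 2 or 3 the higher genes numbered 10, 9 and 10. All 3 kinases of the receptors passed, against 43.9% of all genes. Jak2, which acts at the interferon gamma receptor, had 578, 627 and 843 counts against 286, 513 and 246 (log2 ratio -1.06, SE 0.15, edgeR adjusted p = 0.00227). Jak1, which acts at both receptors, fell less (-0.44, 0.0156, and 0.0503 without I/R liver 3). Tyk2, which acts at the type I receptor, had 288, 366 and 345 counts against 501, 673 and 325 and rose (0.50, 0.00585), though not on log2(FPKM + 1) (0.19, limma adjusted p = 0.271).

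Feedback inhibitors of the pathway were lower in 5 of 6 cases, against 23.7% of all genes. Ptpn2, a phosphatase of the Janus kinases, had 660, 1103 and 1150 counts against 386, 463 and 204 (log2 ratio -1.54, SE 0.15, edgeR adjusted p = 0.000588). Socs1, a suppressor of cytokine signalling that cytokines induce, had 68, 109 and 89 counts against 27, 36 and 23 (-1.66, SE 0.22, edgeR adjusted p = 0.00147). The phosphatase Ptpn11 fell by 0.55 on the log2 scale (edgeR adjusted p = 0.00187), and did not pass with the length trend removed (-0.23, 0.0575). Il10rb, the chain that interferon lambda shares with interleukin-10, fell too (-1.48, edgeR adjusted p = 0.000549), while Ifnlr1, the chain specific to interferon lambda, did not pass at 5 to 34 counts per liver (-1.08, 0.143), except without I/R+Rk2 liver 1 (-1.91, 0.0199).

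Sensing and adaptor genes upstream of the interferons numbered 15 tested, with 2 higher (13.3% against 20.3% of all genes) and 9 lower (against 23.7% of all genes). The lower genes include Ticam2 (15, 16 and 19 counts against 3, 0 and 3) and Tlr9 (16, 17 and 22 against 4, 3 and 0). Both passed the count filter only through the I/R livers, so their direction is not independent of the filter. Lowest in p were the kinase Ikbke (log2 ratio -0.87, edgeR adjusted p = 0.000772), the Toll-like receptor adaptor Myd88 (-0.83, 0.0012) and the kinase Tbk1 (-0.68, 0.00198). Of 51 further interferon-stimulated genes, 12 were higher (23.5% against 20.3% of all genes) and 11 lower (21.6% against 23.7%), shares close to those over all genes. The smallest p-values were those of Samhd1, a dNTP hydrolase (-0.88, edgeR adjusted p = 0.00102), Slfn5 (-1.19, 0.00107) and Trim30a (-1.53, 0.00152).

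The interferons themselves were at or near 0. Of 21 rows for interferon genes in the FPKM table, 18 were listed at 0 in all 6 livers, and the others were Ifnk, Ifnz and Ifng. Ifng, the ligand of the receptor whose chains fell, was listed at 0.147, 0 and 0.226 FPKM in I/R and 0.189, 0.108 and 0.126 FPKM in I/R+Rk2, too low for a test. Of the cytokines linked to interferon gamma production, Il18 had 110, 158 and 184 counts against 177, 361 and 177 (log2 ratio 0.59, SE 0.19, edgeR adjusted p = 0.0381). It did not pass without I/R liver 1 (0.53, 0.112), I/R liver 2 (0.56, 0.0976), I/R+Rk2 liver 2 (0.50, 0.117) or I/R+Rk2 liver 3 (0.51, 0.1). Il15 did not pass (-1.32, 0.23).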

How the data were processed

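RNA of 6 livers (250 ng each, MGI library kit) was sequenced. The submitters' processing notes name FastQC 0.11.5, HISAT2 2.2.1, StringTie 1.3.3 and mm10; the annotation, strand setting and counting step are not given in the sources used here, so a gene and an antisense partner cannot be told apart. The authors deposited whole-number counts per gene and, separately, FPKM (fragments per kilobase of transcript per 1000000). Of the rows of counts, 21 hold a date in place of a name and 2 repeat a name.

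Counts were tested in R 4.3.3 with edgeR 4.0.16 (filterByExpr, TMM scaling, quasi-likelihood F test, no covariates), with Benjamini-Hochberg adjustment over all 12411 genes. Calls used an adjusted p below 0.05, with or without a fold above 2. Standard errors are the absolute log2 fold change over the square root of F. The scripts were tested on simulated data. No source says that livers were pooled. Livers of 1 group differed by 31.4 to 74.8 in chi-square per degree of freedom, far over sampling noise.

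The members and lists were chosen with earlier results of these data known. Members past the threshold with at least 20 counts in the higher group were named with counts per liver, as were the receptors, STATs, interferon regulatory factors and the member of each role with the smallest p, and the 3 genes with the smallest p of each pathway list. A few members are not reported here but were kept in all fits and totals. Other members are named with fewer values and were chosen after their values were seen. Alternatives were other scalings (relative log expression, upper quartile, library size alone), filters (none, or 10 counts in every liver), DESeq2 1.42.0, a replicate block, each liver left out, limma 3.58.1 on log2(FPKM + 1) or log2(FPKM + 0.1) kept at a mean of 1 FPKM or more, or with no filter, and removal of the trend on transcript length. Summing counts with same-strand genes that share exon positions (16 members in GENCODE M21) was added after seeing the data. Fold changes from FPKM understate low genes because of the pseudocount.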

Additional observations from a re-analysis of the deposited data

How the results depend on the processing

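Of 67 tested members, 38 stayed on their side of the adjusted p in every alternative in which they could be fitted, 17 of them called and 21 not. Another 15 lost their call and 14 gained one in at least 1 alternative. Of the called members 0 changed sign, whereas 13 of the 21 never called did. Without 1 liver at a time, members past the threshold ran from 14 to 21, of them higher 0 to 6 and lower 13 to 15. At the adjusted p alone they ran from 23 to 36, higher 6 to 16 and lower 17 to 20. The pathway genes outside the members called higher (16) ran from 9 to 12, and the median of the members from -0.0263 to 0.132 (without I/R replicate 3).

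Higher members past the threshold numbered 2 with library size alone and 1 with 10 counts in every liver. On log2(FPKM + 1) with the filter, log2(FPKM + 0.1) and log2(FPKM + 1) without it, members past the threshold were 8, 9 and 8, all lower (0 higher). At the adjusted p alone, both filtered fits gave 17, of them 4 higher and 13 lower, and the fit with no filter gave 6 higher. Pathway genes called higher were 4 with library size alone, and 6, 6 and 5 in the FPKM fits. The cause was not tested. The median of the members was -0.113 with library size alone, which also moved that of all genes to -0.17, and -0.0532 on FPKM with no filter. Irf2bp2, Ifi27 and Ifitm3 were among those that lost their call with library size alone. DESeq2 called 23 members, 6 of them higher.

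With the replicate number as a block, 19 members passed the threshold, 4 of them higher, and at the adjusted p alone 31 members and 11 higher pathway genes passed. Ifit2, Irf2bp2 and Ifnar1 lost their call under the block (0.0516, 0.0746 and 0.0931) and Irf7 and Gbp10 gained one. Same-numbered livers did not deviate together over all genes tested (correlations of -0.0559, 0.00522 and -0.0579). The labels do not say what the number means, and these correlations cannot exclude a pairing that touches only some genes. Members at few counts, such as Oas1c and Gbp5, are measured with more counting error, and the effect of depth on their calls was not tested.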

Other observations

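Outside the members, some of the further interferon-stimulated genes changed, in both directions, and kept their call in every alternative in which they could be fitted. Of those named below, Slfn8 and Sp110 could be fitted in 14 alternatives, and Lgals9, Apol9a, Apol9b and Cd274 in 17. These genes were chosen after their values were seen. Lgals9, which encodes galectin-9, had 5994, 10541 and 9179 counts in I/R and 15765, 23766 and 9814 in I/R+Rk2 (log2 fold change 0.85, edgeR adjusted p = 0.00227). Apol9a (0.93) and Apol9b (0.99), apolipoprotein L genes that are close copies of each other, rose as well. Cd274, which encodes the checkpoint ligand PD-L1, had 243, 233 and 268 counts against 115, 88 and 33 and fell (log2 fold change -1.76, edgeR adjusted p = 0.00448), as did Slfn8 (-2.80) and Sp110 (-1.55).

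The order of the livers of 1 group differed among the members, but in both groups liver 3 was most often highest and liver 1 most often lowest. I/R liver 3 had the highest scaled level of its group for 31 of the 67 tested members (46.3%, against 30.8% of all genes tested), among them Rsad2, Ifit1, Ifit3, Isg15 and Ifih1. I/R+Rk2 liver 3 had the highest of its group for 32 (47.8%, against 28.3% of all genes). The lowest of its group was I/R liver 1 for 33 of the 67 and I/R+Rk2 liver 1 for 34, for which the share over all genes was not computed.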
